A study of Rattus norvegicus with 10 samples.

Results

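The regions described here are stretches of RNA that carried an N6-methyladenosine (m6A) peak in quiescent rat cardiomyocytes, had no overlapping peak in hypertrophic cardiomyocytes, and yet lay within a short distance of a hypertrophic peak. They were taken from the deposited quiescent peak list by 3 conditions: a peak score of at least 100, no hypertrophic peak overlapping by as little as 1 bp, and a nearest hypertrophic peak at 1 to 5000 bp from edge to edge. Touching peaks count as a distance of 1. Of 68440 quiescent peaks, 41281 scored at least 100, and 1936 of those (4.69%) met the rule. They are called neighbour-only quiescent peaks below, and the nearest hypertrophic peak of each is called its partner. The hypertrophic list held 65539 peaks.

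The cells were primary cardiomyocytes of rat pups aged 1 to 3 days. Hypertrophic cells were kept in M199 medium containing 2% bovine serum, and quiescent cells in M199 without serum. RNA of each condition was immunoprecipitated with an m6A antibody in 2 libraries per condition, and 2 control libraries used normal IgG, which does not bind m6A, on RNA of hypertrophic cells. Both lists were called against that control, per the names of the lists. The series also holds 2 input libraries per condition, which are not analysed here. The labels do not say how many litters or cultures the libraries stand for, or how pure the cardiomyocytes were, and the lists carry no gene names with which markers could be checked.

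m6A is a methyl group placed on adenosines of RNA, mostly by a nuclear complex built around METTL3 and METTL14. It can be removed by the demethylases FTO and ALKBH5 and is read by proteins such as the YTH family, which affect splicing, translation and decay of the marked transcript. Marked adenosines often lie in clusters along a transcript, in particular near stop codons and in long exons. An extra peak next to an existing peak is therefore a natural unit to look at. In cultured cardiomyocytes, serum is a standard stimulus of hypertrophic growth.

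Each condition is represented by 1 deposited list. There is accordingly no spread between replicates, no test was made, and every interval below covers counting error only, at the 95% level (Wilson for shares, order statistics for medians, exact binomial for the ratio of counts). The peak score is the authors' peak caller's own value and ranks evidence for a peak against the control. The summit height is the read pileup at the highest base of the peak, with no stated scaling. In both lists the scores begin at 50, and summit heights do not exceed 164. The score, the missing overlap and the distance are the measured values that the peaks were chosen by, and they are given as description. A peak in RNA needs the RNA to be present, so a peak found in 1 condition can reflect methylation or transcript level, and the lists cannot tell these apart. The files hold neither strand nor gene. Whether a neighbour-only peak and its partner lie on the same transcript was therefore not tested, and positions are given in rat build rn4, counted from 1.

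Most neighbour-only quiescent peaks were moderate in strength. Their median score was 137.32, with quartiles of 114.92 and 187.9, and 1131 of the 1936 scored under 150. At the upper end, 72 scored 400 to under 800, and 8 scored 800 or more. Quiescent-only peaks farther than 5000 bp from any hypertrophic peak had a median score of 147.13 (4080 peaks), and shared quiescent peaks of at least 100 had one of 260.59 (35265 peaks). At the edge of the rule, the 3 lowest scores inside it were 100, 100.01 and 100.04, and the 3 highest scores outside it were 99.97, 99.93 and 99.92. The 3 most distant peaks inside the rule lay at 4998, 4994 and 4987 bp, and the 3 nearest outside it at 5012, 5020 and 5024 bp. Among these, a peak on chromosome 1 from 261537387 to 261538257 scored 966.16 and missed the class at a distance of 5024 bp.

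Neighbour-only peaks were 32.2% of all 6016 quiescent-only peaks of that score (interval 31.0 to 33.4%). The rest lay farther away. Exchanging the lists gives the mirror class, hypertrophic-only peaks of at least 100 beside a quiescent peak, with 1553 peaks. That was 42.6% (interval 41.0 to 44.2%) of the 3644 hypertrophic-only peaks. A smaller share of the condition-only peaks thus sat beside a partner in the quiescent list than in the hypertrophic list, although the number was larger.

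At a common score, the excess in number over the mirror class was relatively larger at higher scores, up to 800. For all scores of at least 100 the ratio of neighbour-only quiescent to mirror peaks was 1.25 (exact interval 1.17 to 1.33). From 100 to under 150 it was 1.06, with 1131 against 1062 peaks. From 150 to under 200 it was 1.32, with 384 against 292 peaks. From 200 to under 400 it was 1.95, with 341 against 175 peaks, or 3.09% of 11041 quiescent and 1.72% of 10196 hypertrophic peaks in the band. From 400 to under 800 it was 3.43, with 72 against 21 peaks, or 1.06% of 6770 and 0.369% of 5688. At 800 or more it was 2.67, with only 8 against 3 peaks. Such ratios need scores of the 2 lists to be comparable, which was not tested. Shared peaks of at least 100 had a median score per read of summit height of 12.1 in the quiescent and 10.1 in the hypertrophic list. The bands were compared only at a common score. The class was also taken from the 38392 highest-scoring peaks of each list in place of a common score. Overlaps and partners were still sought in the full lists. The mirror class stayed at 1553 peaks and the quiescent class fell to 1581. The ratio was then 1.02 (interval 0.949 to 1.09), so the overall excess was not seen at equal rank.

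Within a band of score, neighbour-only quiescent peaks had lower summits than shared quiescent peaks. Their median height was 13 reads, with quartiles of 10 and 19, against 25 reads in shared quiescent peaks of at least 100. Part of that gap goes with the lower scores, so heights were set side by side in the same score bands. From 100 to under 150, the median was 11 in neighbour-only peaks and 14 in shared quiescent peaks. From 200 to under 400, it was 15 and 23, and from 400 to under 800 it was 20 (interval 18 to 25) and 33 (interval 32 to 34). The ratio of the 2 medians thus moved through 0.786, 0.765, 0.652 and 0.606 over the 4 bands. Without score bands, the median score per read of summit height was nearly equal, at 11.9 in neighbour-only and 12.1 in shared quiescent peaks. In the mirror class the ratio of median heights to those of shared hypertrophic peaks was 0.933, 1.05, 0.963 and 0.93 over the same bands. Quiescent-only peaks farther than 5000 bp away had lower heights still, with medians of 10, 12, 14 and 18 in the same bands. Low pileup at a given score was thus seen in quiescent-only peaks with and without a near partner. Both lists share an IgG control taken from hypertrophic cells, and the part of that control in these scores was not tested.

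**Figure D1:**
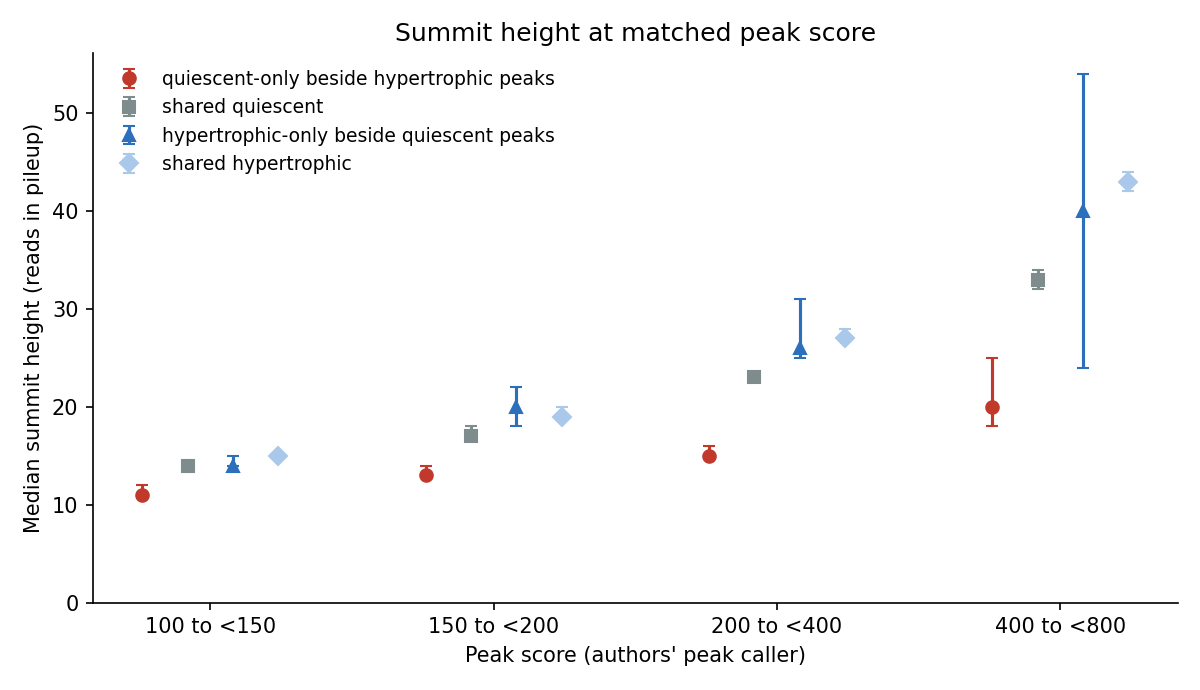
Median summit height in reads (vertical axis) in 4 bands of peak score (horizontal axis) for neighbour-only quiescent peaks (red circles), shared quiescent peaks (grey squares), the mirror class of hypertrophic-only peaks (blue triangles) and shared hypertrophic peaks (light blue diamonds); bars are 95% order-statistic intervals. The red circles lie below the grey squares in each band, at 20 against 33 reads in the highest, while the blue triangles lie near the light blue diamonds.

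In width, the lower-scoring neighbour-only peaks were close to shared quiescent peaks, and the higher-scoring ones were wider. Their median width was 375 bp (interval 367 to 382 bp), with quartiles of 284 and 506 bp. From 100 to under 150 the median width was 332 bp in neighbour-only and 320 bp in shared quiescent peaks. From 400 to under 800 it was 745 and 599 bp. In that band it was 655.5 bp in quiescent-only peaks farther away. The 21 peaks of the mirror class there had a median of 691 bp, against 605 bp in shared hypertrophic peaks. Greater width in this band was thus not particular to neighbour-only peaks. Only 18 of the 1936 were wider than 2000 bp.

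A minority stood on tall pileups. Summits above 45 reads, a bound taken over from earlier work on these lists, were found in 185 neighbour-only peaks (9.56%), against 27.5% of shared quiescent peaks of at least 100 and 5.12% of quiescent-only peaks farther away. In the mirror class the share was 14.3%. The 185 tall neighbour-only peaks had a median height of 90 reads and a median width of 633 bp, while their median score of 139.97 hardly differed from the 137.26 of the other 1751. The partners of these tall peaks were tall as well, with a median of 63 reads against 14 reads for the partners of the others. Of the 185, 113 had a partner above 45 reads (61.1%), against 237 of 1751 (13.5%). Over all 1936, the height of a peak and that of its partner had a Spearman correlation of 0.36, a description over pairs that share their locus and the control libraries. In the mirror class the same correlation was 0.365.

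The tallest neighbour-only peaks reached the largest height in the list. On chromosome 9 from 32931273 to 32936856, a peak of 5584 bp scored 427.68 with a summit of 164 reads, 4212 bp from a partner of 25 reads and score 173.38. On chromosome 6 from 12489778 to 12490750, a peak of 973 bp also reached 164 reads and scored 256.11, 746 bp from a partner of 41 reads. A peak on chromosome 1 from 24853918 to 24855177 had 164 reads but a score of only 150.66. Another on chromosome 2 from 140144076 to 140145867 had 164 reads and scored 103.66, just inside the score bound. The fifth, on chromosome 2 from 77564020 to 77566216, had 163 reads and scored 316.69. The scores of these 5 thus ran from 103.66 to 427.68, on both sides of the class median, at nearly the same height. Across the class the Spearman correlation of height with score was 0.279, against 0.549 in shared quiescent peaks, whose scores span a wider range.

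Partners were found at all distances but were densest close by. The median edge distance was 1509 bp, with quartiles of 513 and 3061 bp. Within 100 bp there were 120 neighbour-only peaks, beyond that and up to 500 bp 355, up to 1000 bp 283, up to 2000 bp 403, and up to 5000 bp 775. Per 100 bp of distance, the density was 120 in the nearest band and 25.8 in the farthest. The mirror class had the same profile, with a median of 1561 bp and 5.47% of its peaks within 100 bp, against 6.20% of the neighbour-only peaks. Summits lay farther apart than edges, at a median of 1968 bp and never closer than 232 bp. In the nearest band the median distance between summits was 411 bp. Partners lay at lower coordinates in 979 cases and at higher coordinates in 957.

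**Figure D2:**
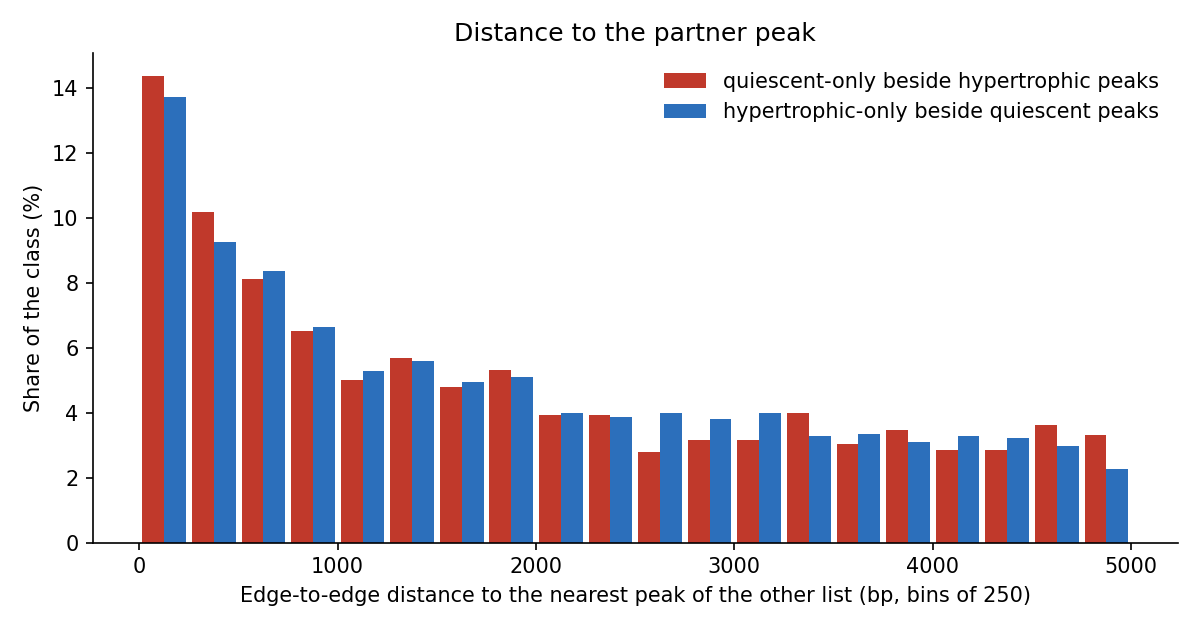
Share of each class (vertical axis, percent) by edge-to-edge distance to the nearest peak of the other list (horizontal axis, bp, in bins of 250 bp), for the 1936 neighbour-only quiescent peaks (red) and the 1553 peaks of the mirror class (blue). Both are highest next to the partner and lower beyond 2000 bp, where the mirror class falls further in the last bins.

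Partners spanned the range of hypertrophic scores in proportions close to those of the whole hypertrophic list. The median partner score was 114 (interval 109 to 119), against 119.77 for all hypertrophic peaks. Of the partners, 16.8% scored 50 to under 60, next to the floor of the list, against 14.2% of all hypertrophic peaks. At 800 or more stood 5.37% of the partners and 6.98% of all hypertrophic peaks. The median partner height was 16 reads, with quartiles of 9 and 34, against 13 reads for the neighbour-only peaks. The partner was taller in 1068 pairs (55.2%), lower in 798 (41.2%) and equal in 70. By score the order was the other way, and the partner scored lower than the neighbour-only peak in 1168 pairs (60.3%). The scores of the 2 members of a pair were nearly unrelated, with a Spearman correlation of -0.03 over the 1936 pairs. The lower bounds of the pair differ, since a neighbour-only peak needed a score of 100 and a partner only 50.

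**Figure D3:**
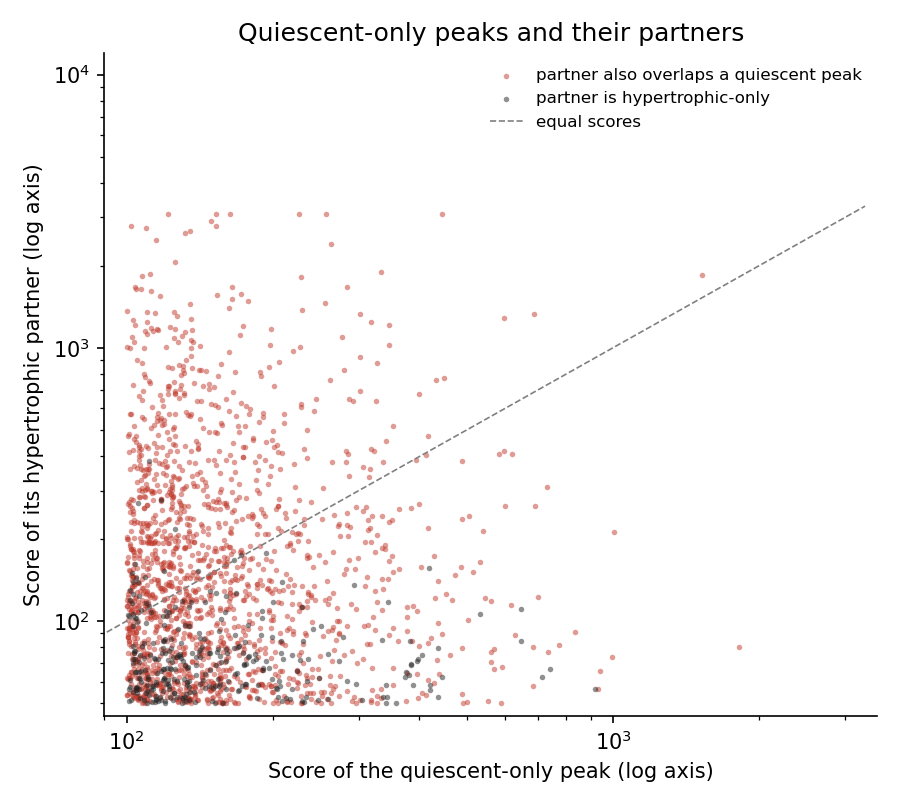
Score of each neighbour-only quiescent peak (horizontal axis, log scale) and of its hypertrophic partner (vertical axis, log scale); red points have a partner that also overlaps a quiescent peak, dark points a partner that is hypertrophic-only, and the dashed line marks equal scores. The partners range from 50 to 3100, and the dark points lie low, with a median partner score of 69.1.

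Most neighbour-only peaks stood beside a site that was itself marked in both conditions. The partner overlapped another quiescent peak for 1626 of 1936 (84.0%, interval 82.3 to 85.5%), against 74.2% of all hypertrophic peaks. In the mirror class 83.1% of partners were shared (interval 81.2 to 84.9%), against 71.0% of all quiescent peaks. The share was 92.5% for partners within 100 bp and 80.1% for those beyond 2000 bp. In these 1626 cases the neighbour-only peak was usually lower in height and score than the quiescent peak at the partner. Its median height was 0.714 of that of the quiescent peak at the partner (interval 0.682 to 0.75), and it was the lower of the 2 in 1083 cases (66.6%) and the taller in 475 (29.2%). It scored lower in 1054 cases (64.8%). The quiescent peak at the partner has a hypertrophic call by definition, and the neighbour-only peak has none. Shared quiescent peaks of at least 100 were taller in general, at a median of 25 reads against 13 in neighbour-only peaks. The part of this choice in the comparison was not tested.

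The other 310 neighbour-only peaks (16.0%) had a partner that was hypertrophic-only. These partners were weak, with a median score of 69.1 and a median height of 10 reads, and lay at a median distance of 1996 bp, against 1385 bp for shared partners. In 253 of the 310, the neighbour-only peak was in turn the nearest quiescent peak to its partner, so that each condition had a peak of its own at the locus. Few of these pairs lay close together: 9 of 253 were within 100 bp and 20 had summits within 500 bp. The partner scored at least 100 in 44 of them (17.4%). Of all 65539 hypertrophic peaks, 48600 were shared, and 3644 of the rest scored at least 100. Low scores were thus not particular to these partners among hypertrophic-only peaks.

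The shared sites beside neighbour-only peaks were themselves lower in hypertrophic cells than shared sites usually were. This measure compares the summit of the partner with that of the quiescent peak over it. It was not itself a condition of the rule. The rule does require that no hypertrophic peak reaches the neighbour-only peak, so the measure is not independent of the choice. How far the choice shapes it was not tested. The 1626 cases rest on 1519 distinct shared partner sites. The hypertrophic summit was at most 1/1.5 of the quiescent one at 338 of them (22.3%, interval 20.2 to 24.4%), against a background of 10.9% of all 48600 shared hypertrophic peaks. When only hypertrophic peaks scoring at least 100 were used in the overlap and distance rule, the share was 12.6% (interval 11.4 to 13.9%), against a background of 8.35% of shared hypertrophic peaks of that score. In the class as first defined, the hypertrophic summit was at least 1.5 times the quiescent one at 163 sites (10.7%, interval 9.27 to 12.4%), against a background of 18.6%. The median log2 ratio of hypertrophic to quiescent height was 0 at the partner sites (interval -0.06 to 0) and 0.15 at all shared hypertrophic peaks. The median was thus equal height, where shared peaks as a whole were 1.11 times as tall in hypertrophic cells.

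The mirror class showed the reverse picture. At the 1242 shared sites beside hypertrophic-only peaks, the hypertrophic summit was at least 1.5 times the quiescent one at 408 (32.9%, interval 30.3 to 35.5%), against a background of 19.8% of all shared quiescent peaks, and at most 1/1.5 at 43 (3.46%), against a background of 9.83%. The median log2 ratio there was 0.35. At both kinds of locus, the neighbouring shared site thus leaned to the condition that had the extra peak. Each class was chosen for a missing call in the other condition, and the part of that choice in the lean was not tested.

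**Figure D4:**
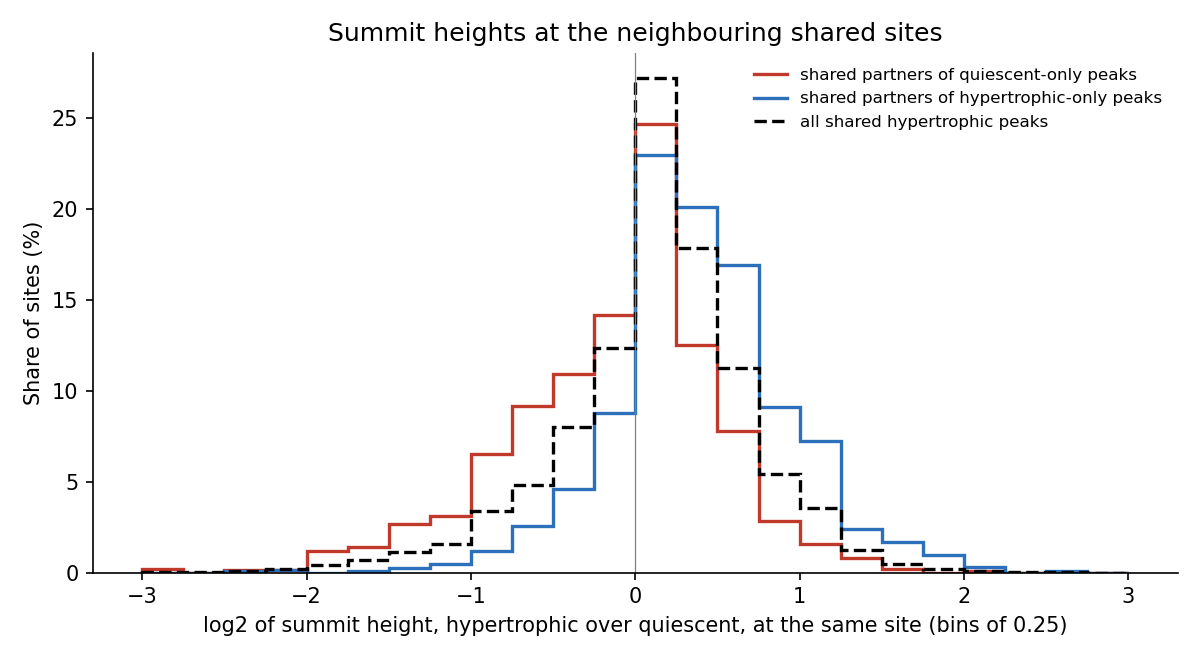
Distribution (vertical axis, percent of sites) of the log2 ratio of summit height, hypertrophic over quiescent, at the same site (horizontal axis, bins of 0.25), for the 1519 shared partners of neighbour-only quiescent peaks (red), the 1242 shared partners of the mirror class (blue) and all 48600 shared hypertrophic peaks (black, dashed). The red outline is shifted to the left of the dashed one, with medians of 0 and 0.15, and the blue one to the right, with a median of 0.35.

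The lean toward quiescent cells was more frequent within 500 bp of the extra peak than beyond 1000 bp. By the rule the partner had to end short of the extra peak, and the part of this condition at short distances was not tested. Where the neighbour-only peak lay within 100 bp, the hypertrophic summit was at most 1/1.5 of the quiescent one at 43 of 111 partner sites (38.7%, interval 30.2 to 48.0%). Beyond that and up to 500 bp the share was 32.9% (interval 27.9 to 38.4%), which overlaps the interval of the nearest band, and up to 1000 bp it was 24.8% (interval 19.8 to 30.5%). Between 1000 and 2000 bp it was 18.6% (interval 14.9 to 23.1%) and beyond 2000 bp 18.8% (interval 15.8 to 22.1%). By the score of the extra peak, the share was 19.6% (interval 17.2 to 22.4%) beside peaks scoring 100 to under 150, 32.9% (interval 27.6 to 38.6%) beside those scoring 200 to under 400 and 28.3% (interval 18.5 to 40.8%) beside those scoring 400 to under 800.

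Weak hypertrophic peaks have low hypertrophic summits by selection, so the partner sites were also set beside all shared sites of the same hypertrophic score. With a score of 50 to under 100, 31.9% of 542 partner sites had a summit lowered to that degree, against 17.5% of all shared sites of that score. From 100 to under 200 the shares were 21.3% of 446 and 11.0%, and from 200 to under 400 they were 14.0% of 278 and 8.44%. From 400 to under 800 they were 16.7% of 150 and 5.52%. The share was higher at partner sites in each of these bands. Over all partner sites of the unchanged class with a hypertrophic score of at least 100 it was 16.9% (165 of 977, interval 14.7 to 19.4%), against the same background of 8.35%. Among 19632 shared hypertrophic peaks that were no partner but had another shared quiescent peak within 5000 bp, the share was 8.74%. The neighbours of those sites have a hypertrophic call by definition, and the set was not matched on score. It therefore cannot show what crowding alone does. With only the 1449 partner sites where exactly 1 peak of each list met, the share was 21.4%, against a background of 9.80%.

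Scores at the same sites leaned the same way. The score of the partner was below that of the quiescent peak over it at 1078 of 1519 sites (71.0%, interval 68.6 to 73.2%), with a median ratio of hypertrophic to quiescent score of 0.728. Over all shared hypertrophic peaks the share was 53.9% and the median ratio 0.954. That comparison was not matched on score. With a hypertrophic score of 50 to under 100, the median ratio was 0.56 at partner sites and 0.731 at all shared sites. From 100 to under 200 it was 0.759 and 1.01, and from 200 to under 400 it was 0.868 and 1.09. From 400 to under 800 it was 0.82 and 1.11, and at 800 or more 0.871 and 1.02. The part of the choice of the class was again not tested.

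Of the 10 highest-scoring neighbour-only peaks, 8 had partners under a score of 100, while 56.0% of the whole class had a partner of at least 100. The 10 were picked by the score used in the rule and do not stand for the class. The first, on chromosome 13 from 109345511 to 109346972, scored 1815.79 with a summit of 26 reads, 4248 bp from a partner of score 79.97 and 9 reads. A quiescent peak of score 212.34 and 13 reads lay over that partner. The second was the broadest of the class, 6084 bp on chromosome 1 from 42199273 to 42205356, and scored 1523.05 with 159 reads. Its partner, 425 bp away, was strong in both conditions, with a score of 1852.45 and 89 reads in hypertrophic cells and 1963.5 and 73 reads in quiescent cells.

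Several of the next peaks stood beside sites that were strong in quiescent cells and near the floor of the list in hypertrophic cells. The peak on chromosome 1 from 171496273 to 171496960 scored 994.39 with 20 reads, 461 bp from a partner site that scored 73.93 in hypertrophic and 1071.49 in quiescent cells, with 8 and 20 reads. On chromosome 20 from 11565489 to 11566491, a peak of score 939.53 and 21 reads lay 277 bp from a site that scored 65.76 in hypertrophic and 676.57 in quiescent cells, again with 8 and 21 reads. On chromosome 1 from 119065503 to 119066936, a peak of score 932.71 and 15 reads lay 953 bp from a site that scored 56.57 in hypertrophic and 904.17 in quiescent cells, with 7 and 16 reads. These 3 loci hold 2 strong quiescent peaks each and only a weak hypertrophic call.

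The largest score gap at a partner among these 10 was on chromosome 4. There a peak from 182546653 to 182547701 scored 775.26 with 18 reads and lay 2998 bp from a site that scored 81.46 in hypertrophic and 2188.6 in quiescent cells, with 6 and 19 reads. The peak on chromosome 20 from 44100918 to 44101880 scored 1002.94 with 29 reads, and its partner site was alike in both conditions, at 22 reads in hypertrophic and 21 in quiescent cells. The peak on chromosome 12 from 40745112 to 40745524 scored 835.8 with 29 reads, 4545 bp from a partner of 10 reads in hypertrophic and 21 in quiescent cells. The remaining pair had hypertrophic-only partners. That on chromosome 2 from 33579421 to 33579909 scored 917.16 and had 26 reads beside a partner of 9 reads. That on chromosome 4 from 25472947 to 25473773 scored 742.28 and had 105 reads beside a partner of 6 reads. In all 10, the partner's summit was lower than that of the neighbour-only peak, against 41.2% of the whole class.

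The strongest partners looked different. The 5 highest-scoring partners all stood at 3100, a value that many peaks share and that does not rank them, and the neighbour-only peaks beside them scored 121.37 to 445.01. On chromosome 8, a neighbour-only peak from 106060325 to 106062995 had 123 reads and a score of 445.01, 3117 bp from a site with 146 reads in hypertrophic and 139 in quiescent cells. On chromosome 9 from 110325660 to 110325999, a peak of 42 reads lay 4845 bp from a site with 111 reads in hypertrophic and 102 in quiescent cells. On chromosome 1 from 4289522 to 4289952, a peak of 15 reads lay 1542 bp from a site with 90 and 78 reads in hypertrophic and quiescent cells. On the same chromosome from 263352567 to 263353023, a peak of 37 reads lay 1108 bp from a site with 140 and 135 reads. On chromosome 9 from 10484324 to 10484657, a peak of only 9 reads lay 235 bp from a site with 109 and 116 reads. At each of these 5 loci the strong site had nearly the same height in both conditions, and a smaller peak stood beside it in quiescent cells only.

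Besides the peaks on chromosomes 1 and 9 already described, the widest neighbour-only peaks were all tall. One of 4318 bp on chromosome 3 from 159346324 to 159350641 had 158 reads and a score of 241.65. Another of 3151 bp on chromosome 1 from 186894501 to 186897651 had 130 reads and a score of 135.83. The last, of 3092 bp, lay on chromosome 16 from 70470948 to 70474039 and had 98 reads and a score of 568.41. Their partner sites had 40, 89 and 51 reads in hypertrophic and 38, 81 and 50 reads in quiescent cells, so these neighbours hardly differed between the conditions.

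Most neighbour-only peaks were lone additions at their locus. Within 5000 bp, 1267 (65.4%) had exactly 1 hypertrophic peak, and 365 (18.9%) had hypertrophic peaks on both sides. Other quiescent peaks within that distance equalled the hypertrophic ones in number in 1047 cases (54.1%), outnumbered them in 530 (27.4%) and were fewer in 359 (18.5%). In the mirror class the own list outnumbered the other in 23.4% and was outnumbered in 19.8%. Of the 1817 distinct partners, 1716 served 1 neighbour-only peak, and 1 partner served 5.

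Runs of neighbour-only peaks were uncommon but more frequent than in the mirror class. Another neighbour-only peak lay within 5000 bp of 258 of them (13.3%, interval 11.9 to 14.9%), against 7.79% (interval 6.56 to 9.23%) in the mirror class. At equal rank the shares were 12.3% (interval 10.7 to 14.0%) and 7.79%. With a score of at least 200 they fell to 7.60% (32 of 421, interval 5.44 to 10.5%) and 3.02% (6 of 199, interval 1.39 to 6.42%), and these intervals overlap. These 258 formed 114 runs, of which 97 had 2 peaks and 17 had 3 or more. Peaks of a run share a locus, which the intervals do not allow for. The window on chromosome 16 from 27000001 to 28000000 alone held 33 neighbour-only peaks and 1 of the mirror class. The run shares were not recomputed without it.

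The longest run had 7 neighbour-only peaks over 3704 bp on chromosome 16, from 18610092 to 18613795. Their scores ran from 128.78 to 176.15 and their summits from 7 to 11 reads, with gaps of 31 to 551 bp between them. Only 3 weak hypertrophic peaks lay within 5000 bp, with scores of 52.49 to 145.72 and 6 to 7 reads. The site at the start of the run scored 145.72 with 7 reads in hypertrophic and 933.05 with 25 reads in quiescent cells. The locus as a whole was thus taller in quiescent cells, and most of its quiescent peaks had no hypertrophic call.

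The next run, of 5 peaks over 4608 bp on chromosome 16 from 27543435 to 27548042, began beside a strong site. That site scored 1640.45 with 57 reads in hypertrophic and 2989.28 with 60 reads in quiescent cells. The neighbour-only peaks had scores of 106.91 to 490.49 and 10 to 25 reads, and the tallest lay farthest from the strong site. The third run, of 5 peaks over 5365 bp on chromosome 7 from 130374789 to 130380153, had a single hypertrophic peak within 5000 bp, of score 61.66 and 8 reads. Its peaks scored 105.66 to 248.69 with 10 to 17 reads, at gaps of 482 to 596 bp.

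**Figure D5:**
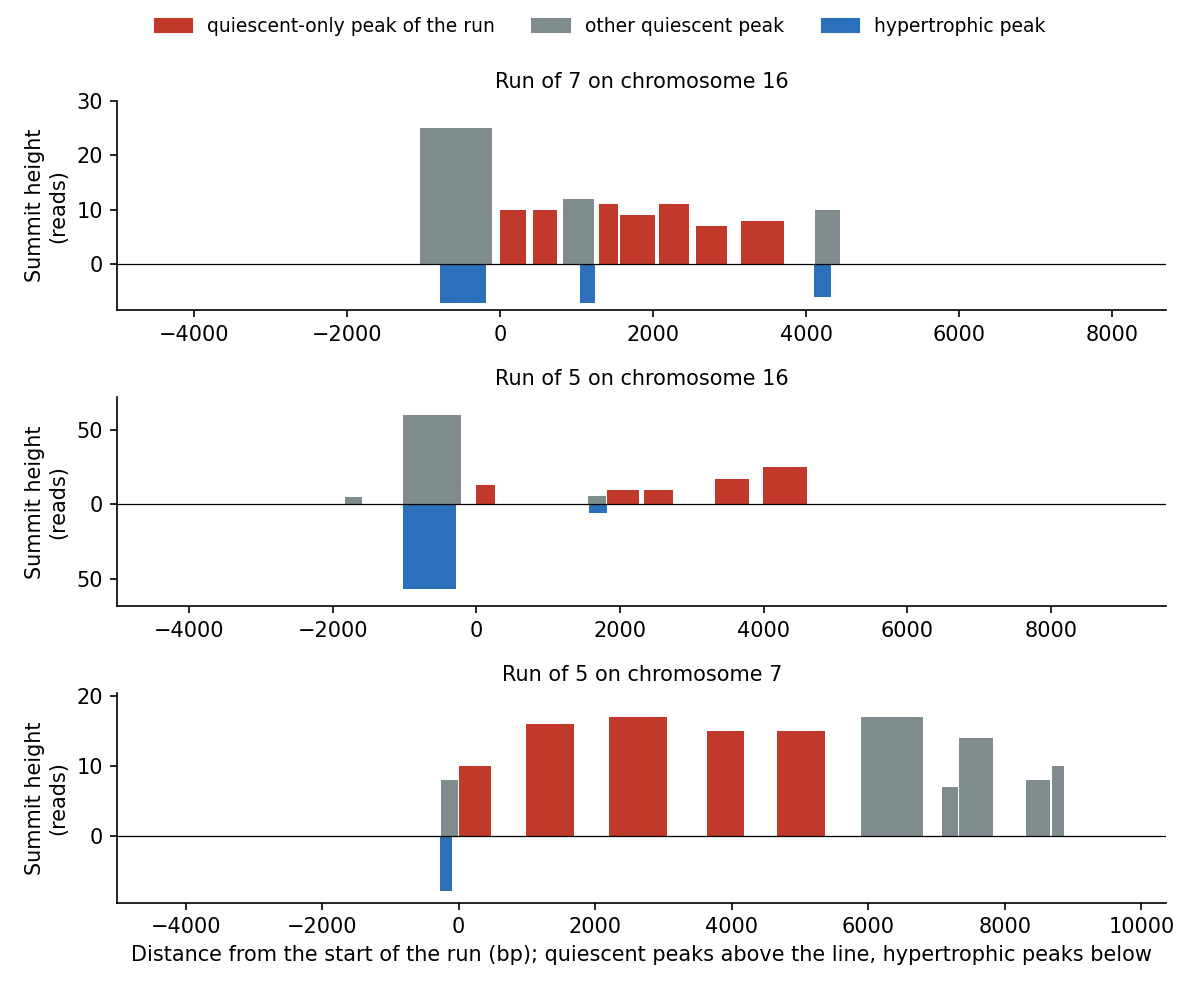
The 3 longest runs, with distance from the start of the run in bp on the horizontal axis and summit height in reads on the vertical axis, quiescent peaks above the line (red for neighbour-only peaks of the run, grey for others) and hypertrophic peaks below it (blue); each box spans the called width. In the run of 7 the hypertrophic peaks reach 7 reads beside quiescent peaks of up to 25, and in the run on chromosome 7 the only hypertrophic peak stands at the left end.

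Along the genome, neighbour-only peaks lay on all 21 chromosomes of the lists. They were 3.44% of the quiescent peaks of at least 100 on chromosome 6, the lowest share, and 7.58% (121 of 1596, interval 6.38 to 8.98%) on chromosome 16, the highest. By raw count they outnumbered the mirror class on 18 of the 21, with 121 against 67 peaks on chromosome 16, and were fewer on chromosomes 8, 13 and X. The quiescent list held more peaks of at least 100, at 41281 against 38392. As a share of such peaks in its own list, the class was below the mirror class on chromosomes 8, 11, 13 and X. On chromosome 11 the shares were 5.281% and 5.403%, with 64 against 61 peaks. Counts by chromosome were not compared at equal rank. Part of the chromosome 16 share came from the window from 27000001 to 28000000, where 33 of 114 quiescent peaks of that score were neighbour-only and 1 hypertrophic peak was of the mirror class. Without that window the share on chromosome 16 was 5.94% (interval 4.84 to 7.26%), and the ratio to the mirror class over the whole genome was 1.23.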

How the data were processed

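Peaks were analysed as the authors deposited them, 1 peak list and 1 summit list per condition. The authors used build rn4 with CASAVA 1.8, TopHat and MACS 1.4, per the submitters' processing notes. Their parameters, and whether replicates were pooled, are not stated in the sources at hand. The score column was deposited in MACS 1.4 layout, in which it is a multiple of minus the log10 of the p-value. The deposited summit signal is a pileup in whole numbers with no scaling stated. Read totals were not given, so depth is unknown beyond summit height.

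Overlap and distance were computed in Python 3.11.15 (numpy 2.4.6, pandas 2.3.3, scipy 1.17.1, matplotlib 3.10.9), tested on simulated lists, and gave the same 1936 peaks as bedtools 2.31.1. Ties in distance went to the higher-scoring partner, and where several quiescent peaks met a partner the highest-scoring one was used. Peaks were named by rule: the 10 highest scores, the 5 highest partner scores, summits and widths, the 3 longest runs, and 3 peaks on each side of each bound. The peaks and lists were chosen with earlier results of these data known. Sequence and gene context were not used here.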

Additional observations from a re-analysis of the deposited data

How the results depend on the processing

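Of 39 recomputed values, 15 stayed within the interval or range of the value reported and 24 moved. With a score of at least 200, the class held 421 peaks, 27.0% of the quiescent-only peaks, with a ratio to the mirror class of 2.12, a median height of 16 reads, a median width of 540 bp, a median partner score of 108.6, 7.60% with another of the class within 5000 bp, and 32.5% of shared partner sites lower in hypertrophic cells. With a distance of at most 1000 bp there were 758 peaks, 12.6% of the quiescent-only ones, with 87.3% shared partners, 10.2% near another and 30.0% of partner sites lower. With hypertrophic peaks within 100 bp also taken as shared, the class held 1816 peaks, which is within 1.5 times the number reported, and was 30.8% of the quiescent-only peaks. The other 7 values stayed within their intervals.

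With only partners scoring at least 100, which also frees quiescent peaks that overlap weaker hypertrophic peaks, there were 3051 peaks, 25.4% of the quiescent-only ones, with a ratio of 1.07, a median height of 15 reads, a median width of 358 bp, a median partner score of 213.5, 94.5% shared partners and 18.3% near another. Partner sites lower in hypertrophic cells were then 12.6%, against a background of 8.35% of shared hypertrophic peaks of that score. By equal rank the ratio was 1.02. The restriction to sites with exactly 1 peak in each list, and equal rank for runs, were chosen after seeing the data and gave 21.4% and 12.3%. The causes of these shifts were not tested. No paired analysis was possible because each condition has 1 list and its columns carry no replicate number, and for the same reason no replicate could be left out. Summit heights near 164 may be compressed, which limits ratios at the tallest sites.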
